A study of Mus musculus with 4 samples.

Results

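The 8 genes described here encode the vascular endothelial growth factors (VEGFs) Vegfa, Vegfb and Vegfc, the receptor tyrosine kinases Flt1, Kdr and Flt4, and the neuropilins Nrp1 and Nrp2. They were picked by name, with earlier results of these data known but no measured value in the rule, out of 21938 protein-coding genes of the GENCODE vM21 annotation. A RUNX1 site or an H3K27me3 peak was assigned to a gene when its summit lay in the mm10 gene body or within 50 kb of it. By this rule the 8 loci held 38 of the 24972 RUNX1 sites of the series (0.152%).

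The cells were floating haematopoietic progenitors from a culture of mouse embryonic stem cells (ESCs). The labels give day 2 of the culture, while a legend in the published article gives day 3 for the RUNX1 cells. All of them carried a Tet-on transgene for a dominant-negative FOS (dnFOS), a FOS form that pairs with JUN proteins and keeps AP-1 off its DNA sites, and doxycycline (DOX) switches it on. The culture scheme of the study shows FLK+ cells, which bear the KDR receptor, taken from embryoid bodies into a blast culture with added VEGF and IL6, with DOX given at that step. RUNX1 was mapped by chromatin immunoprecipitation and sequencing (ChIP-seq) in 1 library with the label +DOX and 1 with the label -DOX, after crosslinking with disuccinimidyl glutarate and formaldehyde. The histone mark H3K27me3 was mapped in 2 further libraries. Run names written inside the 2 RUNX1 peak lists give the opposite treatment to the labels, so every direction below is reversed if the labels are exchanged. The 2 H3K27me3 libraries have titles and treatment labels that contradict each other, and the protocol attached to them names an antibody against RUNX1. They are told apart here only by their titles, untr and DOX, and are not compared with each other. Each condition had 1 library, so no difference between conditions could be tested and no p-value is given. The peak lists hold no read totals, so the depth behind each value is unknown. They also hold no expression, so the labelled cell type could not be checked by its markers.

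VEGF ligands bind as dimers to receptor tyrosine kinases on endothelium and on the mesodermal cells from which blood and vessels form. KDR, also called FLK1 or VEGFR2, carries most of the signal of VEGFA and marks the mesoderm that gives rise to blood and endothelial cells, and FLT1 binds VEGFA tightly but signals weakly. VEGFB binds FLT1, VEGFC binds FLT4 and KDR, and the neuropilins are co-receptors shared with the semaphorins. RUNX1 is the transcription factor needed for blood cells to emerge from hemogenic endothelium. H3K27me3 is the mark that Polycomb complexes place on silenced developmental genes.

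With the exception of the Flt1 and the Vegfa upstream stretches, the sequences below are the 200 bp of mm10 around the summit of the strongest RUNX1 site of each gene whose nearest transcription start is that of the gene itself, all written 5′ to 3′ on the plus strand of the genome. At Nrp2 the lower-ranked summit of the site, that of the list labelled -DOX, is shown and the stretch stops just before the gene's first base. The sites near starts come first, because 7 of the 8 genes had one. Capitals mark the words searched for: TGTGGT or TGCGGT for RUNX, TGACTCA or TGAGTCA for AP-1, CAGGAAA or CAGGAAG as well as CCGGAAA or CCGGAAG for ETS factors, GAGGAAGT for PU.1, AGATAA for GATA factors, TTGCNNAA for C/EBP and GGAATG for TEAD. Both strands were searched, so a match on the minus strand is printed as its reverse complement.
Vegfa start, chr17:46032376-46032575: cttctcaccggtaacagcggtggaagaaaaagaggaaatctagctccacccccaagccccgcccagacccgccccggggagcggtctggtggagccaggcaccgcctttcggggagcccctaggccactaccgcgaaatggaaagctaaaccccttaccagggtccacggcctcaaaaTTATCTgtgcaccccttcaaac
Vegfb start, chr19:6987674-6987873: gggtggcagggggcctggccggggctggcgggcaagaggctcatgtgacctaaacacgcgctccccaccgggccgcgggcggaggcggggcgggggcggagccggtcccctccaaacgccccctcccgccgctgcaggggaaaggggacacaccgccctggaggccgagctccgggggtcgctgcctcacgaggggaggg
Vegfc start, chr8:54077138-54077337: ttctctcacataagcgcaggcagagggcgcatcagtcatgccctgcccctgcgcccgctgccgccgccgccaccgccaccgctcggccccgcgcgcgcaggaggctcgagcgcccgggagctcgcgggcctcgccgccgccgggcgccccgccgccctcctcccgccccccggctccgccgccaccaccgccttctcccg
Flt4 intron 1, chr11:49609791-49609990: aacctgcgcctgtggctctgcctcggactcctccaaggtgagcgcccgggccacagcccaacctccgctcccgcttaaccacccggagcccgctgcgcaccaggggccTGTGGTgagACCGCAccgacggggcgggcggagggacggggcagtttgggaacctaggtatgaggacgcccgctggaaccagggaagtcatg
Nrp1 upstream of the start, chr8:128357282-128357481: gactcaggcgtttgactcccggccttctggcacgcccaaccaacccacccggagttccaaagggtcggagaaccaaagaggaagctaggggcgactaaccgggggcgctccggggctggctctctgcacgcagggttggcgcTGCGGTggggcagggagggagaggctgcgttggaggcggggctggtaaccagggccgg
Nrp2 upstream of the start, chr1:62703125-62703284: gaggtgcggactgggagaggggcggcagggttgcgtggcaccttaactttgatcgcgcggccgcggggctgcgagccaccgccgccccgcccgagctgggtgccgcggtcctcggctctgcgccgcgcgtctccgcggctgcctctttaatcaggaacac
The stretches at Vegfb, Vegfc and Nrp2 held no match to any of the 7 kinds of word, Vegfa held 1 for GATA, Nrp1 1 for RUNX and Flt4 2 for RUNX. The 200 bp at the higher-ranked summit of the Nrp2 site, that of the list labelled +DOX, are not shown and held 1 ETS word.

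Sites away from starts are shown because they ranked high in their loci. At Flt1 the intron 1 site is shown, which was not the strongest of the gene. The Flt1 intron 1 and Vegfa upstream stretches were added after their values were seen.
Flt1 intron 1, chr5:147721484-147721683: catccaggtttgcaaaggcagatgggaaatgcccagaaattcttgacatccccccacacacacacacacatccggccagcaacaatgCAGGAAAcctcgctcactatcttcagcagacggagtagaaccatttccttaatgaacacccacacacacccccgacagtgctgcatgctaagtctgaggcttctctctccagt
Kdr intron 10, chr5:75962271-75962470: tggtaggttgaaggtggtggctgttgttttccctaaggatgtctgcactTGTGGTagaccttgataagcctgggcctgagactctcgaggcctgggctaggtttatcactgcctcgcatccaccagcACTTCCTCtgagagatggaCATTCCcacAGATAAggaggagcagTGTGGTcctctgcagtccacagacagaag
Vegfa upstream, chr17:46073916-46074115: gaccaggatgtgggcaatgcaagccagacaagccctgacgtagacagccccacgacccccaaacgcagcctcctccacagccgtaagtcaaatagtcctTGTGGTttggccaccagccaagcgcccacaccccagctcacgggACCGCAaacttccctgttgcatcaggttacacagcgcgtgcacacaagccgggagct
Kdr intron 10 held 2 RUNX words together with 1 each for PU.1, GATA and TEAD, the Vegfa upstream site held 2 RUNX words close to its summits, and Flt1 intron 1 held 1 ETS word.

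RUNX1 was found at every one of the 8 loci, between 2 sites at Vegfc and Flt4 and 13 at Vegfb. Among all coding genes 78.0% had a RUNX1 site within 50 kb, so the presence of a site does not set the members apart. The members had a median of 3.5 sites and all coding genes a median of 3. In the list labelled +DOX 33 of 21831 peaks lay at the 8 loci, and in the list labelled -DOX 30 of 18389. Peaks of both lists were merged into sites after each summit was extended by 200 bp, and a site was classed by the lists that had a summit in it. The position and sequence words of a site are given at its summit with the higher percentile, and the summits of the 2 lists can lie apart.

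Of the 38 sites, 20 were called in both lists (52.6%, 95% Wilson interval 37.3 to 67.5%), beside 56.8% of all RUNX1 sites. Another 11 were only in the list labelled +DOX (28.9%, 17.0 to 44.8%), beside 28.4% of all sites. The remaining 7 were only in the list labelled -DOX (18.4%, 9.22 to 33.4%), beside 14.8% of all sites. The intervals cover counting error only, and each held the share of all sites. With this assignment the members' classes were near the background. The members' counts changed with the assignment: gene bodies alone held 1 site only in the list labelled +DOX and 5 only in the list labelled -DOX of 12, and assignment by the nearest coding start gave 5 and 6 of 23. The shares of all RUNX1 sites under these assignments were not counted, so these counts have no background beside them.

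The classes were also counted by distance from a transcription start. Over 1500 bp from every annotated start lay 20 of the 38 sites (52.6%), beside 46.1% of all sites. All 7 sites found only in the list labelled -DOX were among these distal ones, where they made up 35.0% (Wilson interval 18.1 to 56.7%) beside 18.1% of all distal sites. Of the 18 sites near a start, 0 were of that class, with an upper limit of 17.6% beside a background of 12%. Sites in both lists were 12 of the 18 near a start, beside 66.9% of all such sites, and 8 of the 20 distal ones, beside 45.0%. Sites only in the list labelled +DOX were 6 of the 18, beside 21.1%, and 5 of the 20, beside 36.9%. The background of the distal -DOX class lay at the lower edge of the members' interval, which treats the sites as independent. Of the 7 sites, 3 lay in introns of Nrp2, at percentiles of 20.7 to 35.2 in their list. The difference from the background was not tested.

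Not every site in a window belongs to a VEGF gene by position. The member's own start was the nearest in 16 of the 38 sites, 9 of them in both lists, 4 only in the list labelled +DOX and 3 only in the list labelled -DOX. The other 22 were nearer to another gene. Ligand windows held 19 sites, of which 5 were nearest to the ligand. Receptor windows held 10 with 7 nearest to the receptor, and neuropilin windows 9 with 4 nearest to the neuropilin. Just inside the 50 kb limit were sites at 41.1 kb from Vegfb, with a −log10 q at the 8.56th percentile of its list, and at 41.6 and 42.3 kb from Vegfa at 94.0 and 57.2. Just outside were sites at 52.2 kb from Vegfb (74.7), 52.5 kb from Kdr (93.9) and 57.04 kb from Flt1 (13.4).

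The strength of a site is given by its −log10 q, the peak caller's significance after correction for multiple testing, and by its percentile, the share of peaks of the same list at or below it. The fold is the peak caller's enrichment of reads over the local background. Since the depth of the libraries is unknown, levels were ranked within a list. Ranks from the lists of 21831 and 18389 peaks are set side by side below as a description only. The 90th percentile of a list was reached by 4 of the 38, beside 10.3% of all sites. Sites in both lists had a median higher percentile of 62.9 (range 4.67 to 99.9), beside 70.5 for all sites of that class. The median was 29.2 (3.31 to 63.8) for sites only in the list labelled +DOX and 23.1 (0.0544 to 54.0) for those only in the list labelled -DOX, beside 27.2 and 23.1 for all sites. Sites called in 1 list thus mostly ranked low in that list, at these loci and elsewhere.

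**Figure D1:**
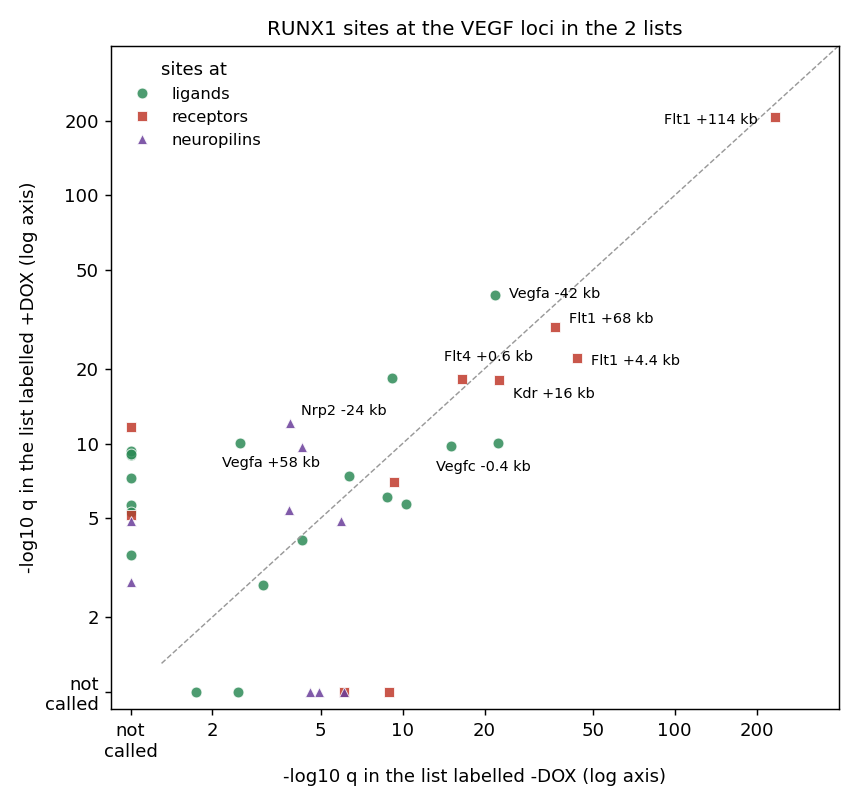
RUNX1 sites of the 8 VEGF ligand, receptor and neuropilin loci, with the −log10 q in the list labelled -DOX on the x axis and in the list labelled +DOX on the y axis, both on log scales. Points on the edges marked "not called" are the 11 and 7 sites found in 1 list, and the dashed line marks equal values. The depth of the libraries is unknown, so distance from this line does not measure a difference between them. The Flt1 site at +114 kb stands far above the other 37.

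The receptor loci held 3 of the 4 sites at or above the 90th percentile, all in Flt1. Flt1 lies on chromosome 5 at 147561604-147726011 on the minus strand (ENSMUSG00000029648.13) and had 5 sites, 4 of them in the gene body. Kdr, at 75932827-75978458 on the minus strand of the same chromosome (ENSMUSG00000062960.10), had 3. Flt4, on chromosome 11 at 49609263-49652739 on the plus strand (ENSMUSG00000020357.3), had 2. Of the 10 receptor sites 6 were in both lists, 2 only in the list labelled +DOX and 2 only in the list labelled -DOX.

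Flt1, the tight-binding receptor of VEGFA and VEGFB, had no RUNX1 site within 1500 bp of a start, the only member without one. Its sites lay instead in introns of the 30-exon principal transcript. In intron 1, 4.43 kb from the 5′ end, the −log10 q was 22.2 (84.6th percentile, 8.38-fold) in the list labelled +DOX and 43.6 (94.9th, 10.7-fold) in the list labelled -DOX. In intron 10, 67.98 kb into the gene, the values were 29.5 (90.1st percentile, 10.2-fold) and 36.2 (93.2nd, 10.99-fold). Both introns therefore carried strong peaks in both libraries, each at the higher percentile in the list labelled -DOX. The intron 10 stretch held words for ETS, PU.1 and GATA, the last in 2 copies. A weaker site in intron 3, at 34.8 kb, was called only in the list labelled -DOX, with a −log10 q of 6.07 (35.2nd percentile) and 1 ETS word. A site 198 kb from the 5′ end was called only in the list labelled +DOX, at 11.6 (63.8th percentile). It lies in an intron of Pan3, which encodes a subunit of an RNA deadenylase, 1748 bp from a Pan3 start, and held 4 RUNX words.

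The remaining Flt1 site, in intron 15 at 114 kb, was the strongest of the 38 by far. Its −log10 q was 207 (99.8th percentile, 27.9-fold) in the list labelled +DOX, where it ranked 35 among 21831 peaks, and 235 (99.9th, 30.1-fold) in the list labelled -DOX, where it ranked 17 among 18389. The same place was a peak of both H3K27me3 lists, with 152 (99.4th percentile, 34.9-fold) in the library titled untr and 137 (99.4th, 34.6-fold) in the library titled DOX. The 4 summits lay within 4 bp of each other. The stretch is 93.5% repeat-masked, held no match to the 7 kinds of word, and the part of the repeat in its enrichment was not tested. It was the only one of the 38 sites under both H3K27me3 lists, beside 4.99% of all RUNX1 sites, and 0 of the 38 lay under exactly 1 of them. Under the list titled untr lay 6.19% of all RUNX1 sites and under the list titled DOX 6.56%. Without this site 37 sites remained, 19 of them in both lists, 11 only in the list labelled +DOX and 7 only in the list labelled -DOX.

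Kdr, the main signalling receptor, had a site at its start and a stronger one inside the gene. At the start, 85 bp upstream of the 5′ end, the −log10 q was 7.001 (38.8th percentile, 4.52-fold) in the list labelled +DOX and 9.33 (55.7th, 5.52-fold) in the list labelled -DOX, over sequence of 65.5% GC without a searched word. In intron 10, 16.1 kb from the 5′ end, it was 18.0 (79.2nd percentile, 8.11-fold) and 22.6 (85.2nd, 8.84-fold). The intronic site was thus the stronger one in both lists. A retained-intron transcript of Kdr has an exon over its summit. Words for RUNX, PU.1, GATA and TEAD together were found at 4 of all 24972 sites (0.0160%), and this site was 1 of them, a combination picked after it was seen here. Beyond the 3′ end, 77.8 kb from the 5′ end, a site with 2 ETS words was called only in the list labelled -DOX, at 8.92 (54.0th percentile). Its nearest start, 9211 bp away, was that of Gm25374, and its nearest coding start was that of Kdr.

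Flt4 encodes the VEGFC receptor of lymphatic endothelium and carried a site in intron 1, 628 bp from its start. The −log10 q there was 18.2 (79.5th percentile, 7.11-fold) in the list labelled +DOX and 16.6 (77.4th, 7.42-fold) in the list labelled -DOX, nearly the same rank in each list. The merged site spanned 3 summits of the list labelled +DOX. A second site, 49.9 kb from the start and beyond the 3′ end, was called only in the list labelled +DOX, at 5.15 (23.6th percentile). It held 3 RUNX words, 2 ETS words and 1 C/EBP word, and the nearest start was that of Scgb3a1, which encodes a secretoglobin. Across the 3 receptors, 5 of the 6 sites in both lists had the higher percentile in the list labelled -DOX, the repeat-masked Flt1 site included. The Flt4 intron was the exception. By the percentile of the fold the Flt4 intron also ranked higher in the list labelled -DOX, at 82.0 against 78.3, so its order depends on the measure.

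**Figure D2:**
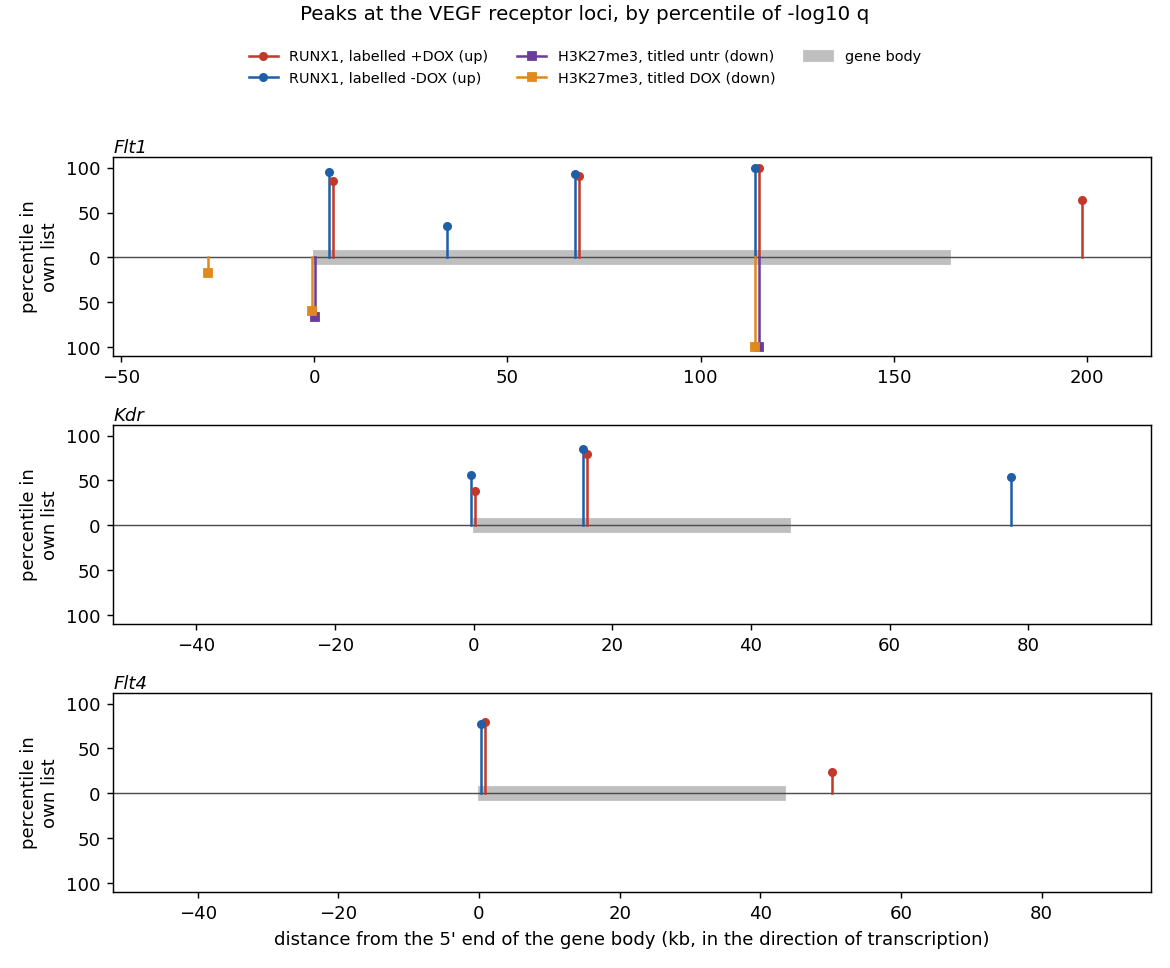
Peaks at Flt1, Kdr and Flt4 by distance from the 5′ end of the gene (x axis, kb) and percentile of −log10 q in their own list (y axis), with RUNX1 upward, H3K27me3 downward and the gene body in grey. Peaks of 2 libraries at 1 place are drawn side by side. Only the site at +114 kb in Flt1 reaches both ways, while the Flt1 start carries H3K27me3 and no RUNX1.

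Among the ligands, Vegfa had 4 sites, Vegfb 13 and Vegfc 2. Of these 19 sites, 10 were in both lists, 7 only in the list labelled +DOX and 2 only in the list labelled -DOX. Vegfa lies on chromosome 17 at 46016993-46032369 on the minus strand (ENSMUSG00000023951.17), Vegfb on chromosome 19 at 6982473-6987651 on the minus strand (ENSMUSG00000024962.13) and Vegfc on chromosome 8 at 54077606-54187096 on the plus strand (ENSMUSG00000031520.6).

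Vegfa, the main ligand of KDR and FLT1, carried only weak peaks at and in the gene. At the start, 107 bp upstream, a peak was called only in the list labelled +DOX, with a −log10 q of 5.64 (29.2nd percentile, 4.14-fold). In intron 2 of the 8-exon principal transcript a peak was called only in the list labelled -DOX, at 2.49 (1.66th percentile, 3.15-fold), with 1 RUNX word. Neither peak was called in the other list, and both ranked low in their own. The strong site of the window lay 41647 bp upstream. There the −log10 q was 39.7 (94.0th percentile, 12.2-fold) in the list labelled +DOX and 21.9 (84.5th, 8.997-fold) in the list labelled -DOX. That site lies in an intron of the unnamed transcript AC110562.2, whose start is 10250 bp away, and its nearest coding start was that of Mrps18a, which encodes a mitochondrial ribosomal protein. On the other side, 57.7 kb from the 5′ end, a site with 2 ETS words had 10.01 (57.2nd percentile) in the list labelled +DOX and 2.52 (2.85th) in the list labelled -DOX. It was nearest to AC127690.1, and the nearest coding start was that of Vegfa. Both flanking sites had the higher percentile in the list labelled +DOX.

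Vegfb had the most sites, in a window crowded with genes, and only 1 of the 13 was nearest to Vegfb itself. More RUNX1 sites within 50 kb were found at 0.465% of coding genes. The Vegfb site lay 123 bp upstream of the start, over sequence of 77.5% GC without a searched word, and was called only in the list labelled +DOX, with a −log10 q of 9.33 (53.9th percentile, 5.32-fold). The other 12 were nearest to Fermt3, Trpt1, Fkbp2, Ppp1r14b, Plcb3, Bad and Gpr137. The strongest in the list labelled -DOX was an exonic site of Fermt3, which encodes the integrin activator kindlin-3 of blood cells, with 4 ETS words, at 22.5 (85.1st percentile), against 10.1 (57.5th) in the list labelled +DOX. The strongest in the list labelled +DOX lay in a coding exon of Fkbp2, a prolyl isomerase gene, at 18.4 (79.7th percentile), against 9.11 (54.8th). Neighbouring genes thus differed in which list had the higher rank. Of the sites in both lists near the start of Ppp1r14b, a phosphatase inhibitor gene, the one 75 bp away had percentiles of 29.7 in the list labelled +DOX and 60.4 in the list labelled -DOX, while the one 256 bp away had 42.7 and 36.9. By the percentile of the fold both ranked higher in the list labelled -DOX, with 2.89 and 32.3, and with 10.2 and 12.7, in the same order of lists. At Bad, which encodes a pro-apoptotic BCL2 relative, the percentiles of −log10 q were 32.1 and 53.3 in that order. Sites called only in the list labelled +DOX lay at the Fermt3 start (9.02, 52.5th percentile), at the start of the phospholipase gene Plcb3 (9.05, 52.7th) and at Gpr137, which encodes a membrane protein (3.55, 8.56th). The 4 Trpt1 sites, at a tRNA phosphotransferase gene, were all at or below the 24.5th percentile, 2 of them in both lists, 1 only in the list labelled +DOX and 1 only in the list labelled -DOX.

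Vegfc, the lymphatic ligand that binds FLT4 and KDR, had a site in both lists upstream of its start. The summit of the list labelled -DOX lay 368 bp upstream, at 54077238, and that of the list labelled +DOX nearer to the start, at 54077517. The −log10 q was 9.78 (55.7th percentile, 5.71-fold) in the list labelled +DOX and 15.0 (74.4th, 7.34-fold) in the list labelled -DOX. The sequence at the summit of the list labelled -DOX was 80.5% GC and held no searched word. The other site, 22121 bp upstream, was called only in the list labelled +DOX, at 7.24 (41.8th percentile, 5.30-fold), over sequence of 24.5% GC, the lowest of the 38, also without a searched word.

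**Figure D3:**
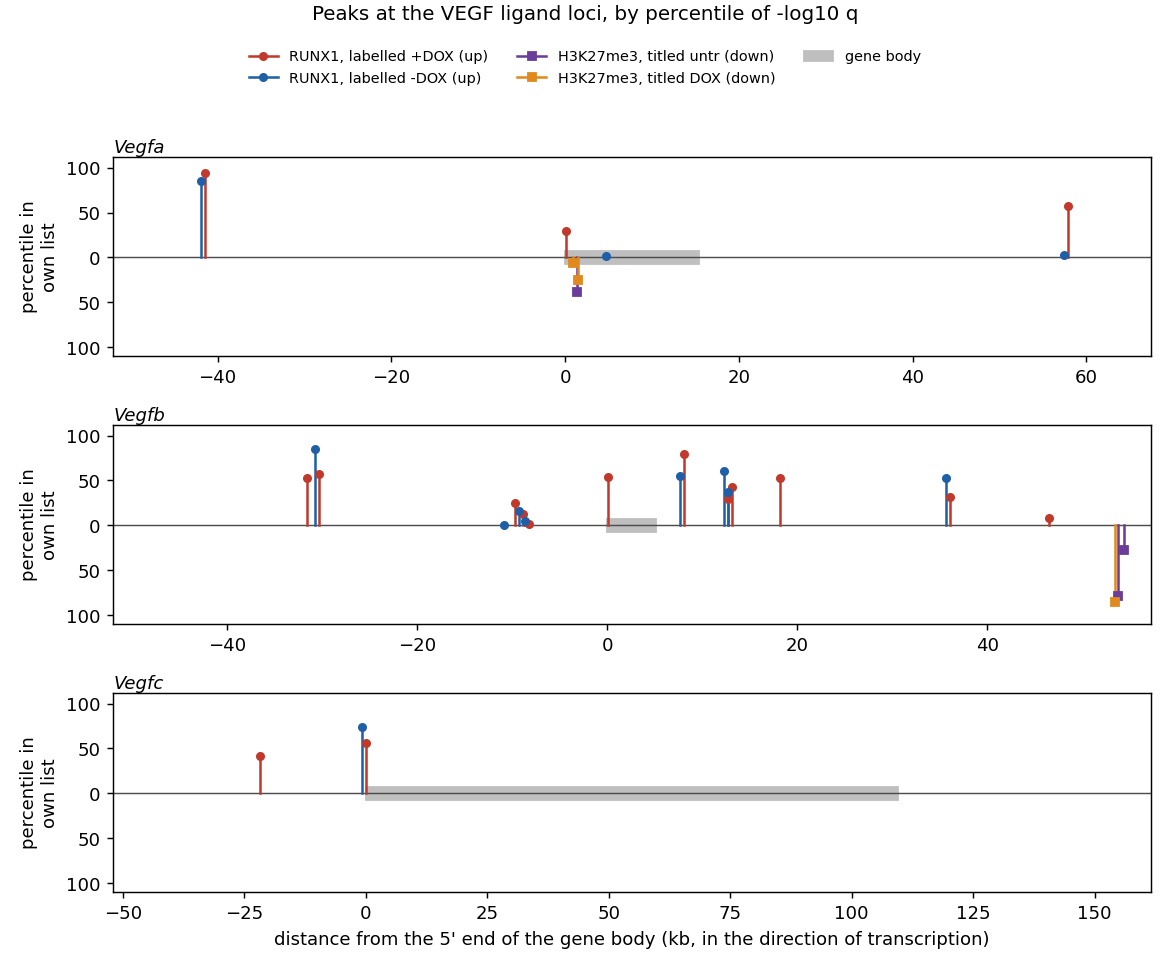
Peaks at Vegfa, Vegfb and Vegfc by distance from the 5′ end of the gene (x axis, kb) and percentile of −log10 q in their own list (y axis), with RUNX1 upward, H3K27me3 downward and the gene body in grey, peaks of 2 libraries at 1 place being drawn side by side. The highest ligand peak lies about 42 kb upstream of Vegfa, and the 13 Vegfb sites spread over its neighbours.

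The neuropilin loci held no site above the 65.3rd percentile. Nrp1, on chromosome 8 at 128358604-128503363 on the plus strand (ENSMUSG00000025810.9), had 3 sites. Upstream of its start, at 1222 bp, the −log10 q was 5.37 (25.1st percentile) in the list labelled +DOX and 3.82 (11.04th) in the list labelled -DOX. In intron 12 of 17 exons, 133 kb into the gene, a site was called only in the list labelled +DOX, at 2.78 (3.31st percentile) with 1 C/EBP word. All Nrp1 sites were thus in the lower part of their lists. The last one, 147 kb from the start and just beyond the 3′ end, was also called only in the list labelled +DOX, at 4.88 (21.9th percentile). It held 2 AP-1 words, 1 RUNX word and 1 PU.1 word, and it was the only one of the 38 with an AP-1 word. RUNX and AP-1 words stood together at 568 of all sites (2.27%).

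Nrp2, on chromosome 1 at 62703285-62818695 on the plus strand (ENSMUSG00000025969.15), had 6 sites, all with Nrp2 as the nearest coding start. At the start the −log10 q was 9.72 (55.4th percentile, 4.89-fold) in the list labelled +DOX, with the summit at 62703569, and 4.26 (16.1st, 3.75-fold) in the list labelled -DOX, with the summit at 62703225. Upstream, at 24327 bp, it was 12.1 (65.3rd percentile, 6.51-fold) and 3.85 (13.4th, 4.05-fold). These sites had the higher rank in the list labelled +DOX, while another at 38266 bp upstream, at 4.88 (21.9th percentile) and 5.92 (32.6th), had it in the list labelled -DOX. Inside the gene, 3 intronic sites at 3.51, 21.6 and 97.2 kb were called only in the list labelled -DOX, with values of 4.92, 4.56 and 6.07, at percentiles of 23.1, 20.7 and 35.2. Nrp2 was the member with the most sites of that class, 3 of its 6, beside 14.8% of all RUNX1 sites. Like Kdr, it had 0 of the +DOX class, beside 28.4% of all sites. Several weak values recur exactly: 458 peaks of the list labelled +DOX had the −log10 q of the site beyond Nrp1, and 310 of the list labelled -DOX that of the Flt1 intron 3 site, so small differences in rank among such peaks carry no order.

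**Figure D4:**
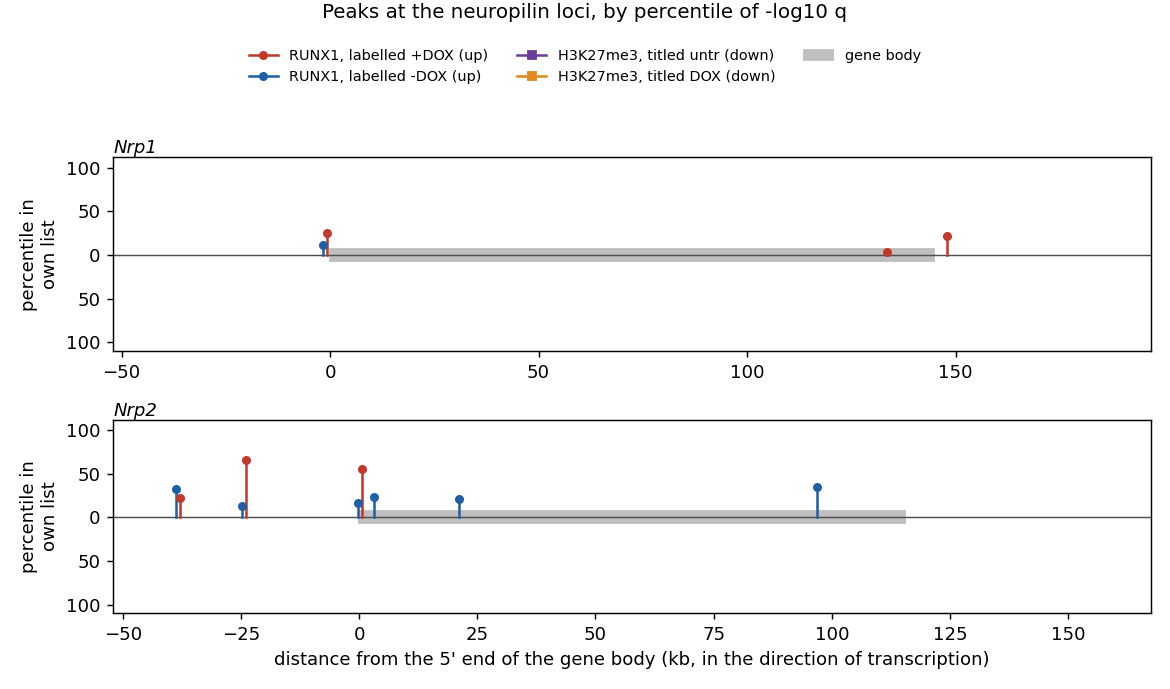
Peaks at Nrp1 and Nrp2 by distance from the 5′ end of the gene (x axis, kb) and percentile of −log10 q in their own list (y axis), with RUNX1 upward and the gene body in grey, peaks of 2 libraries at 1 place being drawn side by side. No H3K27me3 peak was called in either window, and no RUNX1 peak passes the 65.3rd percentile.

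Over the 8 genes, 7 had a RUNX1 site within 1500 bp of one of their starts, beside 50% of coding genes. For 5 of them, Vegfc, Kdr, Flt4, Nrp1 and Nrp2, the site was in both lists, beside 39.2% of coding genes. The starts of Vegfa and Vegfb had a site only in the list labelled +DOX. Of the 20 sites in both lists, 12 had the higher percentile in the list labelled -DOX and 8 in the list labelled +DOX, while over all 14177 such sites it was 41.96% and 58.03%. By window the count with the higher percentile in the list labelled -DOX was 6 of 10 for ligand, 5 of 6 for receptor and 1 of 4 for neuropilin windows. Of those 10 ligand-window sites only the Vegfc start site was nearest to a ligand, so the count mostly describes neighbouring genes. Among the sites of both lists nearest to the member's own start the count was 6 of 9. These counts describe 1 pair of libraries and were not tested.

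H3K27me3 was found at the starts of 2 members, Vegfa and Flt1, in each list, beside 11.7% of coding genes in the library titled untr, 11.1% in the library titled DOX and 9.40% in both. At Flt1 the summit lay 260 bp upstream of the 5′ end in the library titled untr, with a −log10 q of 8.70 (66.6th percentile, 5.44-fold), and 158 bp upstream in the library titled DOX, with 6.16 (59.1st, 5.08-fold). This was the start without a RUNX1 site. At Vegfa the summit lay in an intron, 1189 bp from the 5′ end, in the library titled untr, with 5.52 (38.3rd percentile, 5.33-fold). In the library titled DOX there were 2 small peaks, at 1169 bp with 2.11 (5.67th percentile) and at 1733 bp with 3.46 (25.2nd). The Vegfa start site of RUNX1 lay outside all of these peaks. Counted over the windows, 5 of the 6356 H3K27me3 peaks of the library titled untr and 6 of the 7233 of the library titled DOX lay at the loci. Besides those named they were the intron 15 peak of Flt1, a weak peak 27014 bp upstream of Flt1 in the library titled DOX (3.06, 17.0th percentile), and peaks at Kcnk4, a potassium channel gene in the Vegfb window, with −log10 q up to 11.4 and 11.7. Vegfc, Kdr, Flt4, Nrp1 and Nrp2 had no peak in either list. Absence from these lists is not absence of the mark, since broad low enrichment can escape narrow peak calling.

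Motif words at the 38 sites occurred about as often as at all RUNX1 sites. RUNX words were found at 13 of 38 (34.2%, Wilson interval 21.2 to 50.1%), beside 37.4% of all sites. ETS words were found at 14 (36.8%, 23.4 to 52.7%), beside 29.9%. PU.1, the ETS factor of myeloid cells, and GATA words were each found at 4 (10.5%, 4.17 to 24.1%), beside 4.66% and 11.7%. C/EBP and TEAD words were each found at 2 (5.26%, 1.46 to 17.3%), beside 6.46% and 8.64%. For AP-1, the factor that dnFOS blocks, it was 1 (2.63%, 0.466 to 13.5%), beside 4.97%. Each interval held the share of all sites. No word of any kind was found at 10 of 38, beside 33.4% of all sites. PU.1 is itself an ETS factor, but its word holds none of the ETS words in full.

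RUNX words were then counted by position and class. Of the 20 distal sites 9 had one (45.0%), beside 48.8% of all distal sites, and of the 18 near a start 4 (22.2%), beside 27.8%. By class it was 5 of the 20 sites in both lists, 4 of the 11 only in the list labelled +DOX and 4 of the 7 only in the list labelled -DOX, beside 38.03%, 38.7% and 32.8% of all sites. The sites near a start had a median GC content of 64.5% (range 54.5 to 84.0%), beside 67% for all such sites, and the distal ones 52.25% (24.5 to 65.5%), beside 50%. A match describes the letters in this window and no more.

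**Figure D5:**
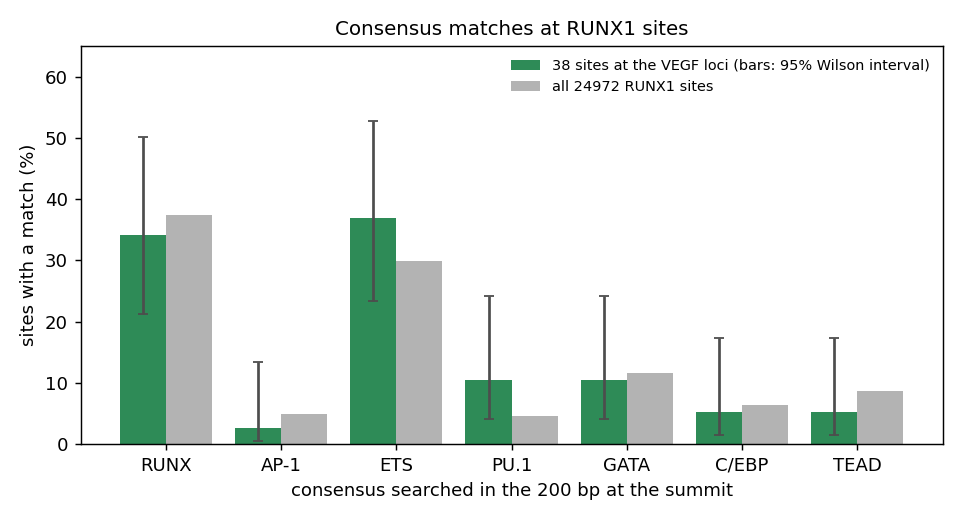
Share of RUNX1 sites with each searched word in the 200 bp at the summit (y axis, percent), for the 38 sites of the VEGF loci in green with 95% Wilson intervals and for all 24972 sites in grey. Each interval spans the grey share, from 2.63% for AP-1 to 36.8% for ETS among the members.

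RUNX1 sites were present at most genes of the wider VEGF pathway. Of 69 listed genes 66 had a site within 50 kb (95.7%), beside 78.0% of all coding genes, and 59 had one within 1500 bp of a start (85.5%), beside 50%. In 51 of the 69 a site at the start was in both lists, beside 39.2% of coding genes. Many of the listed genes encode widely used signalling enzymes, and their expression in these cells is not known from the lists. The 340 sites counted over these genes, some of them shared by neighbours, were 193 in both lists, 96 only in the list labelled +DOX and 51 only in the list labelled -DOX. Beside them, 56.8%, 28.4% and 14.8% of all RUNX1 sites were in these classes, in the same order.

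The genes with a site near at least 1 of their starts were then counted by group, beside the background of 50% of coding genes. Such a site was found in 8 of 8 genes of hypoxia control, 8 of 8 of the PI3K and AKT branch, 8 of 8 of the calcium and NFAT branch, 5 of 5 plexins, 14 of 15 of the protein kinase C, RAS and MAP kinase branch and 14 of 16 of receptor-proximal signalling. Among the other ligands and semaphorins it was 2 of 9, a difference that was not tested, and Sema3c, Sema3d and Sema3e had no site in the window. The strongest sites by percentile in each group were at the start of Arnt, the partner of the hypoxia-inducible factors, with a −log10 q of 90.5 (99.0th percentile), at the start of the adaptor gene Grb2, with 76.8 (98.5th), and in the windows of Pik3cb (117, 99.5th), Prkca (92.7, 99.0th), Ppp3cb (71.1, 98.2nd) and Plxna4 (52.02, 96.4th). In the ligand group the strongest site, shared by Sema3b and Sema3f, was nearest to Gnai2 (93.4, 99.1st). Arnt and Grb2 were the only ones of these whose own start was the nearest to the site.

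H3K27me3 at a start was found for 12 of the 69 genes in each list and for 11 in both, beside 9.40% of all coding genes in both. The highest values were at Shb, an adaptor bound to KDR, with a −log10 q of 34.5 in the library titled untr and 13.7 in the library titled DOX, and at Nfatc2, a calcium-responsive transcription factor gene, with 13.6 and 19.1. Plxna4 had 11.04 and 16.4, the oxygen sensor gene Egln1 15.1 and 13.2, and the sphingosine kinase gene Sphk1 9.35 and 7.78. These peaks exceeded those at the Flt1 and Vegfa starts. Of the marker genes of cell types, RUNX1 sites lay within 50 kb of 6 of 7 progenitor, 7 of 8 endothelial, 4 of 4 smooth muscle and 3 of 4 pluripotency genes, beside the 78.0% of all coding genes given above. A site of both lists within 1500 bp of a start was found at 3 of 7 progenitor, 3 of 8 endothelial, 0 of 4 smooth muscle and 0 of 4 pluripotency genes, beside 39.2% of all coding genes, and these small counts were not tested.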

How the data were processed

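RUNX1 and H3K27me3 were mapped by ChIP-seq in mouse ESC-derived progenitors, with 4 libraries and 1 library per condition. For the RUNX1 libraries the authors' methods name Trimmomatic 0.39, Bowtie2 2.3.5 on mm10, Picard 2.20.2 and MACS2 with a q-value limit of 0.05, while the submitters' processing notes name Bowtie2 2.2.9 and MACS2 2.1.1. No input control is named, and how the H3K27me3 libraries were processed beyond those notes is not given in the sources used here. The authors deposited narrowPeak lists, which hold for each peak the fold enrichment of its summit over the local background and the −log10 q from MACS2. The later filters of the study against blacklisted regions, repeats and DNase I data, and its VEGF-responsive enhancers, were not used here.

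Peaks on chromosomes were kept, and 146 to 300 per list on other sequences were left out. RUNX1 summits were extended by 200 bp and merged over both lists, and genes were taken from GENCODE vM21 with a window of 50 kb. A site was called near a start within 1500 bp. Sequences came from the RefSeq copy of GRCm38, whose coordinates are those of mm10. Shares carry 95% Wilson intervals, which cover counting error only. Scripts used Python 3.11.15, numpy 2.4.6, scipy 1.17.1, pysam 0.24.0 and matplotlib 3.10.9. The sequence of the Flt1 intron 15 site is not reported here. Merging, gene assignment and the motif search were tested on simulated data. With 1 library per condition there was no test and the read depth is unknown. The H3K27me3 libraries were put in no group because their labels contradict each other. Alternatives covered the extension, the q limit, the window, the assignment to genes, the exchange of labels and the motif window.

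The sites of the 8 members were described, those at Trpt1 by their range and counts. Of the pathway list, the gene with the highest RUNX1 percentile in each of its 7 groups and the 5 genes with the highest H3K27me3 value at a start were named. Sites of a member whose nearest start was another gene were reported with that gene. The members, the gene lists and this rule were chosen with earlier results of these data known.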

Additional observations from a re-analysis of the deposited data

Results flagged for a closer look

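The H3K27me3 libraries enter no comparison between conditions, and peaks were nonetheless present at the 8 loci. They were 5 of the 6356 peaks of the library titled untr and 6 of the 7233 of the library titled DOX. The peaks nearest to a member's start numbered 3 of 5 and 4 of 6, at Vegfa and Flt1. No control library was available for them, and the labels do not say which library was treated.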

How the results depend on the processing

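Of 60 alternatives for values that answer a comparison, 29 gave about the same value and 31 moved it, as did 11 of 24 for the counts of single genes; the cause was not tested where it is not plain from the construction. Peaks with a −log10 q of at least 5 left 29 sites, 13 in both lists, 12 only labelled +DOX and 4 only labelled -DOX. A limit of 10 left 13 sites in all, 7 in both lists, 4 only labelled +DOX and 2 only labelled -DOX. Under the alternative q limits, windows, assignments and extension, the shares of all RUNX1 sites were not counted. The counts given for them thus have no background. The gene bodies alone held 12 sites, 6 in both lists, 1 only labelled +DOX and 5 only labelled -DOX. A window of 10 kb held 25, with 6 only labelled +DOX. Assignment by the nearest start gave 16, of which 9, 4 and 3 were in both lists, only labelled +DOX and only labelled -DOX, and by the nearest coding start 23, with 12 in both, 5 only labelled +DOX and 6 only labelled -DOX. Extending summits by 100 bp gave 46 sites in all, 17 in both lists, 16 only labelled +DOX and 13 only labelled -DOX. Exchanging the labels gave 7 only labelled +DOX and 11 only labelled -DOX. H3K27me3 peaks numbered 2 (titled untr) and 3 (titled DOX) both in gene bodies and within 1500 bp of a start, and 3 (titled DOX) at a −log10 q of at least 5. RUNX words were found at 21.1% of sites in a 100 bp window and at 10.5% with TGTGGTT alone. AP-1, GATA and TEAD words were found at 0% in the 100 bp window, and at 1, 4 and 2 of the 38 sites in 200 bp. The shares of all RUNX1 sites were not counted for the 100 bp window or for TGTGGTT, so these values have no background. The Flt1 intron 15 site stayed under both H3K27me3 lists with −log10 q of at least 5 in all 4 lists, an alternative chosen after seeing the data. No paired analysis was possible because each condition had 1 library and no test was run, and for the same reason no replicate could be left out. Calls near the q limit turn on depth, which is unknown.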
